A study of Mus musculus with 4 samples.

Results

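Receptors for the cytokines that drive blood cell formation were followed in immature granulocytes sorted from mouse bone marrow, on arrays that each hold the RNA of 1 sample. Probes were taken by the gene name in the scanner files, which gave 12 probes for 9 genes (Csf3r, Csf2ra, Csf2rb, Csf2rb2, Il3ra, Kit, Flt3, Epor and Il6ra) among 41174 probes in all, and naming the probes by their current symbols added 0 probes. The samples were 2 from mice that lack the microRNA miR-223 (miR-223 KO, here KO) and 2 from wild-type mice (WT). All came from male C57BL/6 animals, and the labels used here give neither their age, nor the surface markers of the sort, nor whether animals were pooled or replicates came from separate animals. The spread behind each p-value is thus the spread of these samples only and may be technical in origin.

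Most of these receptors signal by bringing together chains that carry no enzyme of their own but hold Janus kinases, which then activate STAT transcription factors. Csf3r binds G-CSF, the main cytokine of neutrophil production. Csf2ra and Il3ra are the ligand-binding alpha chains for GM-CSF and IL-3, and both pair with the beta common chain Csf2rb. In mice Il3ra also pairs with Csf2rb2, the IL-3-specific relative of Csf2rb. Il6ra binds IL-6 and signals through Il6st. Epor, the erythropoietin receptor, marks red cell precursors, whereas Kit and Flt3 are receptor tyrosine kinases of stem cells and early progenitors. miR-223 is abundant in granulocytes and lowers transcripts that it pairs with through its seed, and the comparison of genotypes asks which transcripts differ without it.

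The deleted miRNA is shown first because its seed defines the matches searched for in the receptor probes. The capitals mark bases 2 to 8, and the sequence is that of RefSeq on GRCm38.p6, chrX:96242884-96242905, plus strand.
mmu-miR-223-3p: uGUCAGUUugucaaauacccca

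Of the 12 receptor probes, each 60 bases long, 0 held the 6-letter match to this seed, ACTGAC, read in the sense of the transcript, and 1.41% of all probes on the array did. Every longer match to the seed contains these letters. A probe covers only a short stretch of its transcript, so the rest of these transcripts was not searched.

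Csf2rb and Csf2rb2 are neighbouring paralogs on chromosome 15, and their probes are alike. The Csf2rb probe A_52_P52618 (mm9 chr15:78181168-78181227, plus strand) and the Csf2rb2 probe A_51_P146753 (mm9 chr15:78113126-78113185, minus strand) shared 28 of 31 bases in their best ungapped stretch. The last 30 bases of that stretch are shown, with the 3 bases that differ in capitals.
Csf2rb, bases 31 to 60 of the probe: gcagatcaaAtgtCccttggtctCtgttca
Csf2rb2, bases 13 to 42 of the probe: gcagatcaaGtgtTccttggtctAtgttca
The other 2 Csf2rb probes shared no stretch of more than 6 bases with the Csf2rb2 probe. Whether the transcript of one gene binds the probe of the other was not tested, so the values of A_52_P52618 and of Csf2rb2 are uncertain to that extent.

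The annotated span of 2 probes was longer than the probe, as for a probe that crosses an intron of the genome. They are the Csf2rb probe A_52_P664853, whose 60 bases lie in mm9 chr15:78176856-78177118 (263 bases), and the Il3ra probe, whose 60 bases lie in mm9 chr14:15183673-15184484 (812 bases), both on the plus strand.
Csf2rb, A_52_P664853: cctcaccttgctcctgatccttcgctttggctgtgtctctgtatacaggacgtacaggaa
Il3ra, A_51_P432651: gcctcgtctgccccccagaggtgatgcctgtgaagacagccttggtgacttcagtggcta

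All 4 arrays lay on 1 slide and came from 1 scan, 0 spots were saturated, and 59.6% to 62.9% of spots per array were well above background. All 12 receptor probes were well above background on all 4 arrays. Of 13 neutrophil precursor markers tested all were above background on all arrays. They included S100a9 and Mpo, and Ly6g was matched to no probe. Levels below are log2 processed signals relative to the 75th percentile of each array, and a difference is the KO mean minus the WT mean on that scale. Levels of different probes depend on the probe and are not set against each other.

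No receptor probe passed the test between genotypes. With limma, 0 of 12 receptor probes and 0% of all 25749 probes tested passed at an adjusted p under 0.05, and no probe of the array went below 0.0874. At an unadjusted p under 0.05, 4 of 12 receptor probes were found (3 higher and 1 lower in KO), and 24.6% of all probes (11.1% higher and 13.6% lower). In 8 of 12 receptor probes (7 with KO higher and 1 with KO lower) the values of the genotypes did not overlap, as in 59% of all probes, 26.3% with KO higher and 32.8% with KO lower. These counts are to be read against those shares. The difference was above 0 for 10 of 12 receptor probes, with a median of 0.16, and for 45.3% of all probes, with a median of -0.03. When limma's prior variance followed the signal intensity, 1 of 12 receptor probes (Csf2rb2, higher in KO) and 9.63% of all probes passed (5.03% higher and 4.6% lower in KO). With 2 against 2 arrays an exact permutation test of a single probe cannot give a p below 0.3333.

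**Figure D1:**
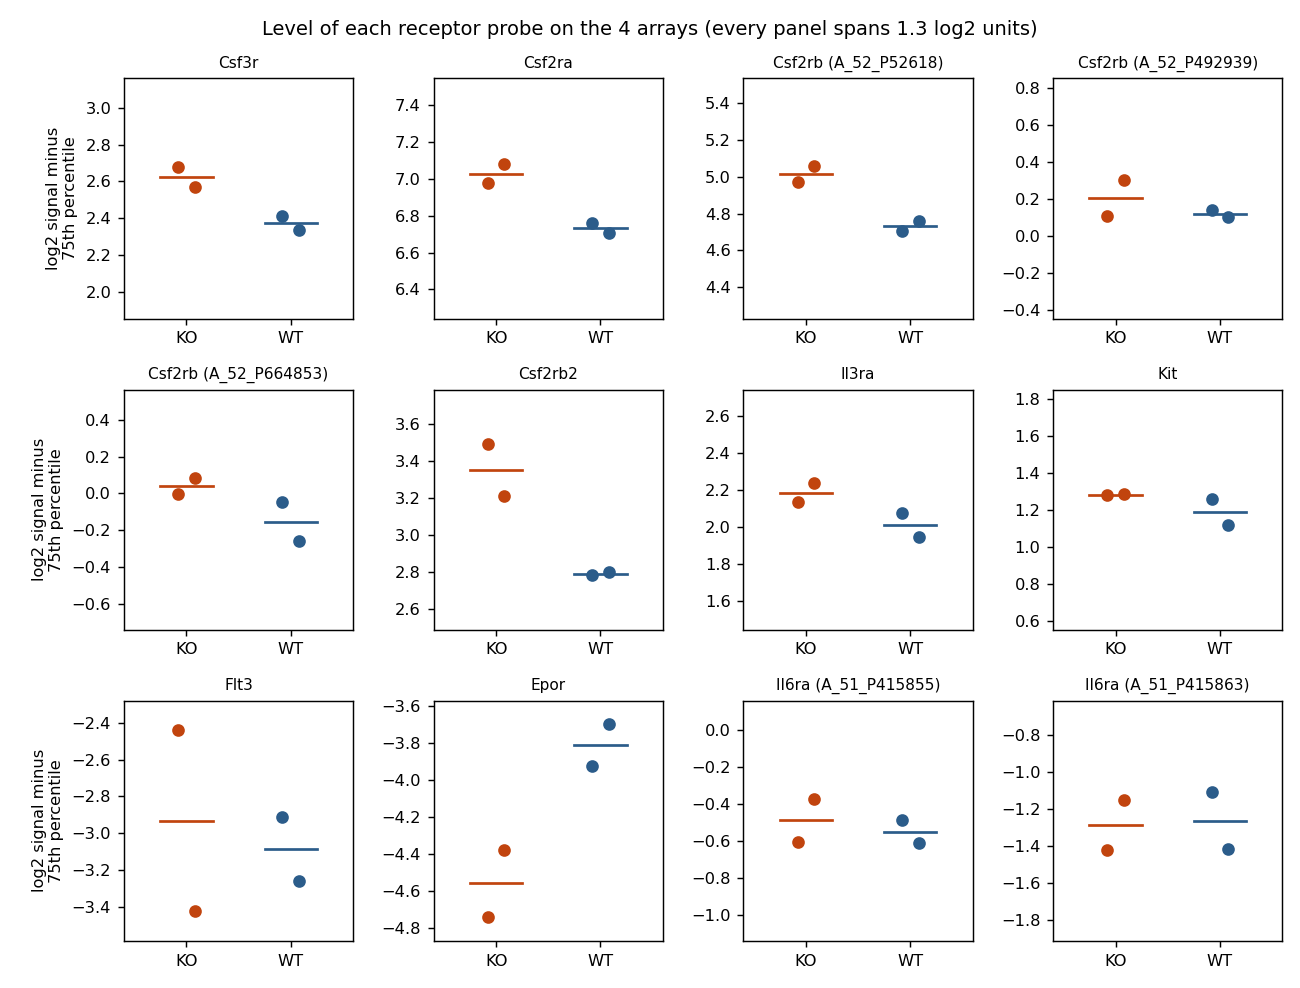
Level of each of the 12 receptor probes (log2 processed signal minus the 75th percentile of the array) on the 2 KO arrays (left) and the 2 WT arrays (right). Points are arrays and lines are group means, and each panel covers the same height. The KO points lie above the WT points for Csf3r, Csf2ra, Csf2rb2, Il3ra, Kit and 2 of the 3 Csf2rb probes, and below them for Epor.

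The receptor with the largest positive difference was Csf2rb2, the beta chain that in mice serves IL-3. It stood at 3.49 and 3.21 in KO, against 2.78 and 2.80 in WT. Both KO arrays were above both WT arrays, and the KO arrays lay further apart than the WT arrays. The mean was 3.35 ± 0.20 in KO and 2.79 ± 0.01 in WT (SD, n = 2 each), a difference of 0.56 ± 0.13 (SE), or 1.47-fold, with a limma adjusted p of 0.121. It passed with the intensity trend (adjusted p = 0.0266) and after normexp background correction without the control spots (adjusted p = 0.00805), and its adjusted p over all alternatives ran up to 0.473. That highest value was with normexp on all spots, where no probe of the array had a lower one.

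Csf2ra, which binds GM-CSF, was higher in KO by a smaller step. Its probe (mm9 chromosome 19, 61300336 to 61300395) read 6.97 and 7.08 in KO, against 6.76 and 6.71 in WT. The groups did not overlap, and their arrays differed from each other by 0.10 in KO and 0.05 in WT. The difference was 0.29 ± 0.09 (SE, n = 2 arrays per genotype), or 1.22-fold, and did not pass (limma adjusted p = 0.169, and 0.0544 with the intensity trend).

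The 3 probes of Csf2rb, the signalling chain shared by the GM-CSF, IL-3 and IL-5 receptors, did not give the same difference. A_52_P52618, which resembles the Csf2rb2 probe, read 4.97 and 5.06 in KO, against 4.71 and 4.76 in WT, a difference of 0.28 ± 0.09 (SE; limma adjusted p = 0.173). On this probe the groups were apart. A_52_P664853 read -0.001 and 0.08 in KO, against -0.05 and -0.26 in WT, a difference of 0.20 ± 0.11 (adjusted p = 0.359), or 0.09 without WT replicate 2. A_52_P492939 (mm9 chromosome 15, 78178640 to 78178699) read 0.10 and 0.30 in KO, against 0.14 and 0.10 in WT. On it the groups overlapped, and the difference was 0.08 ± 0.11 (adjusted p = 0.661). None of the 3 probes passed, and the intervals of their differences overlap, from 0.03 to 0.53 for A_52_P52618, from -0.12 to 0.51 for A_52_P664853 and from -0.22 to 0.38 for A_52_P492939 (95%). The estimate for Csf2rb thus varied with the probe, and whether the probes differ beyond their spread was not tested.

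Il3ra, the alpha chain for IL-3, had values of 2.13 and 2.24 in KO, against 2.07 and 1.95 in WT. The groups lay apart by less than the distance between arrays of one genotype. The difference was 0.18 ± 0.10 (SE, n = 2 arrays per genotype; limma adjusted p = 0.346), with a 95% interval from -0.10 to 0.45, and it was 0.11 without WT replicate 2.

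Csf3r, the G-CSF receptor of the neutrophil lineage, read 2.68 and 2.57 in KO, against 2.41 and 2.34 in WT (mm9 chromosome 4, 125721294 to 125721353, plus strand). Both KO arrays were above both WT arrays. The difference was 0.25 ± 0.09 (SE), or 1.19-fold, and did not pass (limma adjusted p = 0.211, and 0.0898 with the intensity trend), with a 95% interval from -0.01 to 0.51. Among 12631 genes whose brightest probe was well above background on all 4 arrays, those with the profile nearest to Csf3r were Zfp771, Usp54 and Sec61g. Likeness was the Euclidean distance over the 4 arrays after centring each gene, at 0.0102, 0.0137 and 0.0154 log2 units, and with 4 points it describes these arrays only.

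Il6ra, the ligand-binding chain for IL-6, had 2 probes 9688 bases apart on chromosome 3. A_51_P415855 read -0.61 and -0.37 in KO, against -0.49 and -0.61 in WT, and A_51_P415863 read -1.42 and -1.15 in KO, against -1.11 and -1.42 in WT. On both probes the groups overlapped. The differences were 0.06 ± 0.12 (95% interval from -0.29 to 0.41) and -0.02 ± 0.17 (from -0.49 to 0.44), so that a difference as large as that of Csf3r lies within both intervals. Their limma adjusted p-values were 0.787 and 0.943.

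Kit, the stem cell factor receptor, was printed as 10 spots on each array, 1 of 245 probes with 10 spots, and so had the most repeated measurement of the receptors. Its mean over spots was 1.28 and 1.28 in KO, against 1.26 and 1.12 in WT (mm9 chromosome 5, 76052287 to 76052346). The spots of one array varied with an SD of 0.04 and 0.08 in KO and of 0.06 and 0.06 in WT, or 3.04% to 5.51% of the signal. WT replicate 2 stood below the other 3 arrays, and WT replicate 1 read within the spread of spots on the KO arrays. The difference was 0.09 ± 0.10 (SE; limma adjusted p = 0.582), with a 95% interval from -0.17 to 0.36. Without WT replicate 2 it was 0.02.

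**Figure D2:**
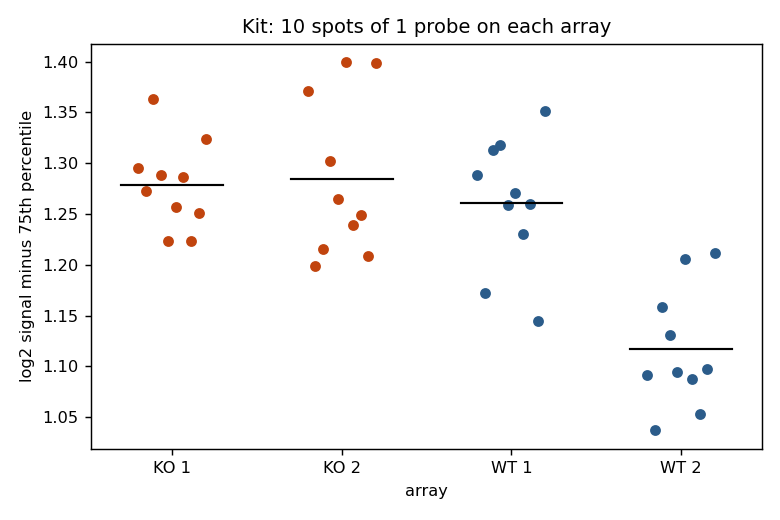
The 10 spots of the Kit probe on each of the 2 KO and 2 WT arrays (log2 processed signal minus the 75th percentile of the array). Points are spots and lines are their mean, which is 1.28 on both KO arrays, 1.26 on WT replicate 1 and 1.12 on WT replicate 2.

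Flt3, the receptor kinase of lymphoid and dendritic cell progenitors, was dim and variable. It read -2.44 and -3.42 in KO, against -2.91 and -3.26 in WT, so that both WT arrays fell between the 2 KO arrays. The difference of 0.15 ± 0.38 (SE; limma adjusted p = 0.823) had a 95% interval from -0.89 to 1.2, and it was -0.34 without KO replicate 1 and 0.64 without KO replicate 2. No direction can be read for this gene.

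Epor was the only receptor of the 9 with lower values in KO on its single or brightest probe. It read -4.74 and -4.38 in KO, against -3.92 and -3.70 in WT (mm9 chromosome 9, 21763422 to 21763481, minus strand). Both KO arrays were below both WT arrays, with processed signals of 13.5 and 20.3 in KO and of 20.7 and 23.9 in WT. The signals of KO replicate 2 and WT replicate 1 were thus nearly alike before scaling. The 75th percentile signal used for scaling was 361 and 422 on the KO arrays and 314 and 310 on the WT arrays, which widens that gap. The difference was -0.75 ± 0.17 (SE), or 1.68-fold lower, and did not pass (limma adjusted p = 0.122, and 0.111 with the intensity trend). It was -0.33 with normexp without control spots and -1.17 with normexp on all spots. The probe was close to the background: the lowest level called well above background was -5.56 and -6.12 on the KO arrays and -5.42 and -5.65 on the WT arrays. Of 8 erythroid markers tested, 7 had a lower mean in KO and 1, Ermap, a higher one (1.05), with a median difference of -0.51. Over all genes tested 47.6% had a positive difference. The summed level of the 8, in multiples of the 75th percentile signal, was 36.1 and 28.2 in KO, against 48.8 and 47.2 in WT. Most of it came from Hba-a1 (5.01 and 4.63 in KO, against 5.45 and 5.40 in WT). The erythroid markers Klf1, Gata1 and Epb42 were not well above background on enough arrays to be tested. In a sorted population a smaller number of cells of one type and less RNA per cell cannot be told apart, and the part of red cell precursors in the Epor difference was not tested.

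**Figure D3:**
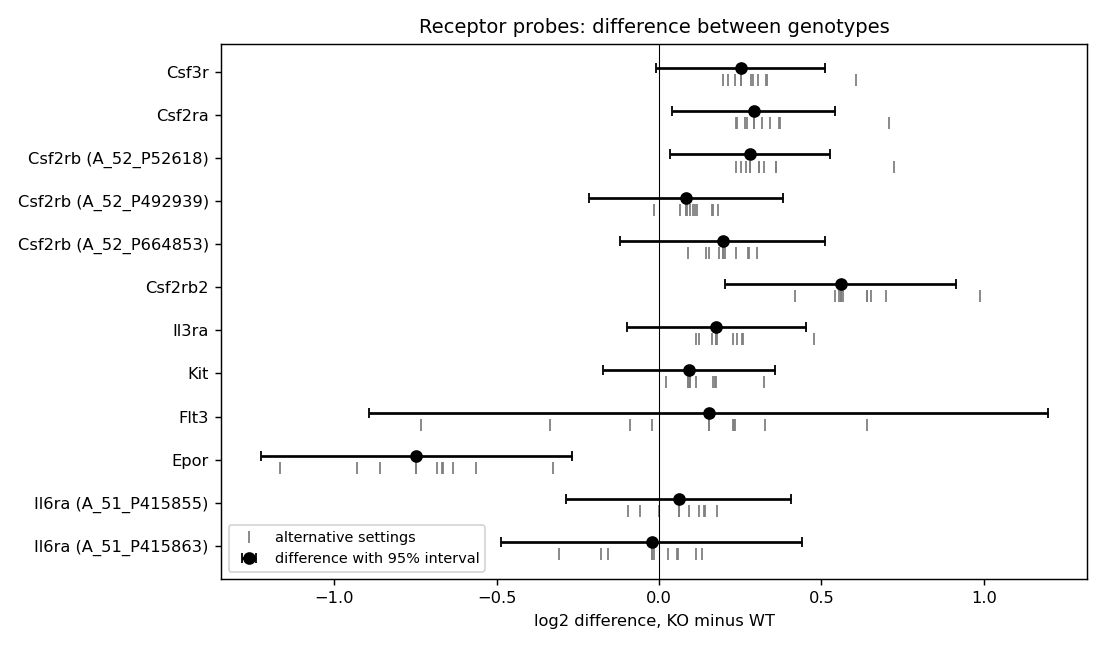
Difference of each receptor probe between genotypes (KO minus WT, log2), with its 95% interval from limma (black) and its values under the alternative settings (grey ticks). The Epor, Csf2rb2, Csf2ra and A_52_P52618 intervals leave out 0, none with an adjusted p under 0.05, and the Flt3 interval, from -0.89 to 1.2, is the widest.

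Promoters of 4 receptors are printed because PU.1, the master transcription factor of myeloid cells, and GATA factors of red cells are known to control receptor genes of their lineages. Each is the 250 bases before the RefSeq start on GRCm38.p6. They are Csf3r (chr4:126024409-126024658, plus strand), Csf2ra (chr19:61228419-61228668, minus strand), Csf2rb2 (chr15:78305722-78305971, minus strand) and Epor (chr9:21963577-21963826, minus strand). Capitals mark matches, on either strand, to the PU.1 core GAGGAA, the C/EBP site TTGCNNAA, the RUNX site TGTGGT, the GATA site AGATAA and the STAT site TTCNNNGAA.
Csf3r: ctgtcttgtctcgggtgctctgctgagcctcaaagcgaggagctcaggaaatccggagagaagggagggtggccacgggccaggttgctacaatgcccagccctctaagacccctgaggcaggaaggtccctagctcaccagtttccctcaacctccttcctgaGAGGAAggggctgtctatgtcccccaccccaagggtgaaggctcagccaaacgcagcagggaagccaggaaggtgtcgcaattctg
Csf2ra: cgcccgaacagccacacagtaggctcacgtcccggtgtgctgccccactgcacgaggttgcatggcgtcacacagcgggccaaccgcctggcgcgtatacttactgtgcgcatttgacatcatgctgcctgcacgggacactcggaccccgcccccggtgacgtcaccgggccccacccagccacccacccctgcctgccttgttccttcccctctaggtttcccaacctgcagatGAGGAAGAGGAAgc
Csf2rb2: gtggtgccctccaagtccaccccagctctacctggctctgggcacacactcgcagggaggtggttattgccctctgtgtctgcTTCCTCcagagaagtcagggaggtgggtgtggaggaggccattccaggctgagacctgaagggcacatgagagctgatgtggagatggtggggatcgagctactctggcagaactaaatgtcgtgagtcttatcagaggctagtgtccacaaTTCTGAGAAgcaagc
Epor: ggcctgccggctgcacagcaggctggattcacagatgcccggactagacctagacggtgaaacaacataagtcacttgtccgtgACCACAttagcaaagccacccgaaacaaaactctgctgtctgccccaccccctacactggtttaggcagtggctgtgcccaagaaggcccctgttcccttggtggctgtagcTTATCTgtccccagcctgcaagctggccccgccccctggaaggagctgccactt

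The PU.1 core was found 1 time before Csf3r, 2 times before Csf2ra, where the matches adjoin, and 1 time before Csf2rb2. Of the receptors whose promoters are not printed, Kit and Il6ra held it and Il3ra and Flt3 did not. For Csf2rb no promoter was available to search. The PU.1 core stood in 23.3% of 32841 promoters of that length. The STAT site before Csf2rb2 occurs in 7.02% of promoters. The C/EBP site was found 1 time before Il3ra and occurs in 9.57% of promoters. Before Epor the GATA site, present in 9.99% of promoters, and the RUNX site, present in 14%, were each found 1 time, and the GATA site was also found before Il6ra. These letters describe the windows and show no binding.

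Other genes of the pathway were read from lists, each gene by its brightest probe. Of the ligands of these receptors only Flt3l, the Flt3 ligand, was above background on enough arrays to be tested (1.49 and 1.48 in KO, against 1.42 and 1.40 in WT). Csf3, Csf2, Il3, Kitl, Epo and Il6 were not. Among 18 partner and related receptors 14 had a positive difference and 4 a negative one, with a median of 0.26. Over all 16978 genes tested 47.6% had a positive difference, and the median was -0.02. With the intensity trend 10.4% of all genes passed (5.88% higher and 4.56% lower), and 3 of these 18 receptors did, all higher in KO. At an unadjusted p under 0.05, 6 were higher and 0 lower in KO, against 11.9% and 12.1% of all genes.

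The related receptor with the smallest p was Csf1r, the M-CSF receptor of monocytes and macrophages, at 2.57 and 2.11 in KO, against 1.59 and 1.57 in WT (difference 0.76 ± 0.18 SE, limma adjusted p = 0.124). Il11ra1, which binds IL-11, read 2.89 and 2.81 in KO, against 2.51 and 2.37 in WT. Il6st, the signalling chain gp130 that Il6ra and Il11ra1 share, read -0.36 and -0.56 in KO, against -1.24 and -0.91 in WT (difference 0.61 ± 0.16 SE, limma adjusted p = 0.136). In each of the 3 the groups did not overlap, as in 58.6% of all genes, and each passed with the intensity trend (adjusted p = 0.0289, 0.0312 and 0.0456). With normexp on all spots the Il6st difference was 0.16.

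Of 22 Janus kinases, STATs and adaptors, 3 were higher and 0 lower in KO at an unadjusted p under 0.05, against 11.9% and 12.1% of all genes, and the median difference was 0.03. A count so near that share is no result about the list. The 3 genes were Stat3, which G-CSF and IL-6 receptors activate (4.95 and 4.75 in KO, against 4.31 and 4.49 in WT), Stat4 (2.76 and 2.80 in KO, against 2.39 and 2.51 in WT) and Jak3, the kinase of receptors with the common gamma chain (0.81 and 0.74 in KO, against 0.42 and 0.53 in WT). Their limma adjusted p-values were 0.147, 0.146 and 0.169. Jak2, Stat5a and Stat5b, which serve the Csf2rb and Epor chains, were at -0.05, 0.08 and -0.08.

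Differences of negative regulators had both signs. Of 15 tested, 2 were higher and 1 lower in KO at an unadjusted p under 0.05, near the 11.9% and 12.1% of all genes, and the median difference was 0.03. Socs3, which shuts off Csf3r and gp130, had the largest value, at -0.37 and -0.39 in KO, against -1.26 and -1.55 in WT (difference 1.03 ± 0.13 SE, limma adjusted p = 0.0897, and 0.00979 with the intensity trend), which was 0.49 with normexp on all spots. Spred1, an inhibitor of the Ras pathway, was at 0.38 ± 0.10. Cish, a feedback inhibitor induced by STAT5, was at -0.41 ± 0.15, with values of -1.29 and -0.98 in KO and of -0.80 and -0.65 in WT.

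Reported target genes of STAT3 and STAT5 were also split, with 6 of 12 higher and 6 lower. Junb, an AP-1 subunit, was at 5.61 and 5.69 in KO, against 4.998 and 4.89 in WT (difference 0.71 ± 0.09 SE, limma adjusted p = 0.0897). The D cyclins of cell cycle entry had negative differences, -0.54 ± 0.09 for Ccnd3 (adjusted p = 0.0954) and -0.29 ± 0.10 for Ccnd2 (adjusted p = 0.202). With normexp on all spots they were -0.024 and 0.026. At an unadjusted p under 0.05 the list held 1 higher and 2 lower genes, near the 11.9% and 12.1% of all genes.

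Of 12 transcription factors that act on myeloid receptor genes, 4 were higher and 0 lower at an unadjusted p under 0.05, against 11.9% and 12.1% of all genes. The median difference was 0.23, and 0.11 over the factors well above background on all arrays. Klf4, a factor of monocytes, read 4.36 and 4.03 in KO, against 3.32 and 3.32 in WT (difference 0.87 ± 0.14 SE, limma adjusted p = 0.0954). Tal1 was at 0.55 ± 0.10 and Cebpa, which activates Csf3r, at 0.46 ± 0.12. Spi1, which encodes PU.1, was at -0.08.

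**Figure D4:**
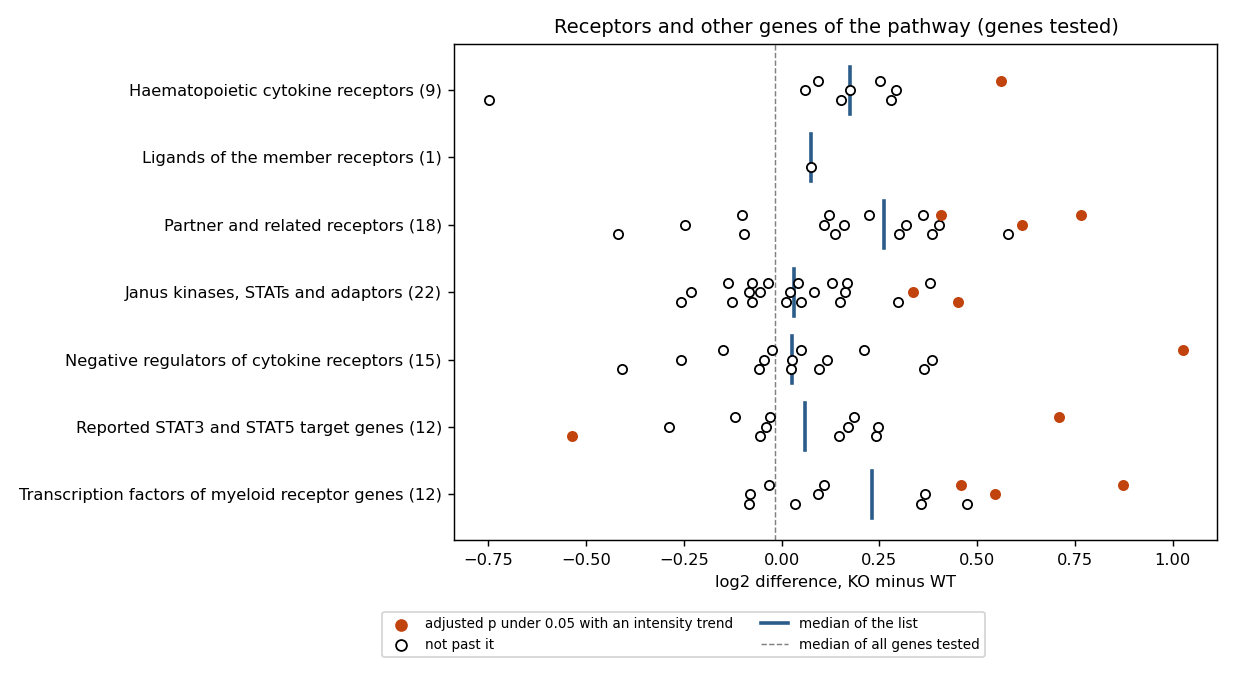
Difference between genotypes (KO minus WT, log2) of the brightest probe of each gene tested, by list, with the number of genes in parentheses. Filled points passed at an adjusted p under 0.05 with the intensity trend, blue bars are list medians and the dashed line is the median of all genes. The largest value is that of Socs3 (1.03), and the receptors (top row) lie between -0.75 and 0.56.

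No marker of another cell type passed the test, as no probe of the array did. The marker values are given beside those of the receptors. With the intensity trend, 10 of 15 monocyte and macrophage markers and 6 of 7 eosinophil markers passed, all higher in KO. Of 8 erythroid markers 3 passed with it, all lower in KO. Higher in KO with it were also 3 of 13 neutrophil precursor, 2 of 7 megakaryocyte, 2 of 10 stem and progenitor and 1 of 7 B cell markers. Lower with it were 1 of 10 T and NK cell and 1 of 5 stromal and endothelial markers. No mast cell, basophil or dendritic cell marker passed with it. Over all genes 5.88% passed with it as higher and 4.56% as lower. Of 15 monocyte and macrophage markers, 13 had a positive difference (median 0.66), and 10 were higher at an unadjusted p under 0.05, against 47.6% and 11.9% of all genes. Their summed level, in multiples of the 75th percentile signal, was 119 and 106 in KO, against 66.9 and 68.8 in WT, and it includes Csf1r and Klf4. F13a1 and Ctss, the brightest, were at 0.71 ± 0.09 and 0.83 ± 0.11. Of 7 eosinophil markers 6 had a positive difference (median 0.998), with a summed level of 20.4 and 18.7 in KO, against 13.4 and 11.5 in WT. Most of that sum came from Ear1 (3.73 and 3.71 in KO, against 3.36 and 3.15 in WT). The other marker, the dim Ccr3, was lower in KO, at -0.62 ± 0.19 (-3.53 and -3.99 in KO, against -3.18 and -3.09 in WT). The eosinophil median was 0.37 with normexp on all spots and 0.47 with normexp without control spots. Il5ra, the eosinophil receptor chain that pairs with Csf2rb, was not well above background. Of 10 stem and progenitor markers 8 had a positive difference, with a summed level of 53.4 and 59.3 in KO, against 41.2 and 44.7 in WT. Most of that sum came from Ly6a (4.98 and 5.21 in KO, against 4.51 and 4.75 in WT). The stem and progenitor median of 0.36 turned with the background correction, to -0.59 with normexp on all spots and -0.05 with normexp without control spots. Monocytes, eosinophils and progenitors carry Csf2ra, Csf2rb and Il3ra chains, and the part of these cells in the receptor values was not tested.

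The mast cell and basophil list, whose cells carry Kit, had a median difference of 0.03 over 8 markers and nearly all of its summed level came from Hdc (6.70 and 6.61 in KO, against 6.62 and 6.55 in WT). The dendritic cell list, of which Flt3 is a member, had a median of 0.19 over 10 markers and summed levels of 11.6 and 8.13 in KO, against 7.65 and 6.68 in WT. Most of that sum came from Bst2 (3.01 and 2.51 in KO, against 2.18 and 2.11 in WT), and 3 of the 10 markers had a negative difference. Neutrophil precursor markers ranged from -0.44 to 0.72, with a median difference of 0.05 and summed levels of 6981 and 6201 in KO, against 6684 and 7232 in WT. At an unadjusted p under 0.05, 4 of 13 were higher in KO and 0 lower, against 11.9% and 12.1% of all genes. The 4 were Prtn3 (0.72), Ctsg (0.63), Elane (0.50) and Ms4a3 (0.31). Of the 13, 6 had a negative difference, the lowest that of Ltf (-0.44). Megakaryocyte markers had a median of 0.65 over 7, but -0.36 with normexp on all spots and -0.01 with normexp without control spots. The medians were, for B cell markers, -0.26 over 7, for T and NK cell markers -0.07 over 10, and for stromal and endothelial markers 0.14 over 5 (summed levels 0.599 and 0.538 in KO, against 0.688 and 0.611 in WT). Single markers lay far from these medians. Cd3d was at -1.43 ± 0.08 and Cxcl12 at -1.57 ± 0.15, while 3 of 10 T and NK cell and 3 of 5 stromal markers had positive differences. Cd79b, at 0.46 ± 0.13, was the only B cell marker with a positive difference. Each passed with the intensity trend (adjusted p = 0.00285, 0.0124 and 0.0455).

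**Figure D5:**
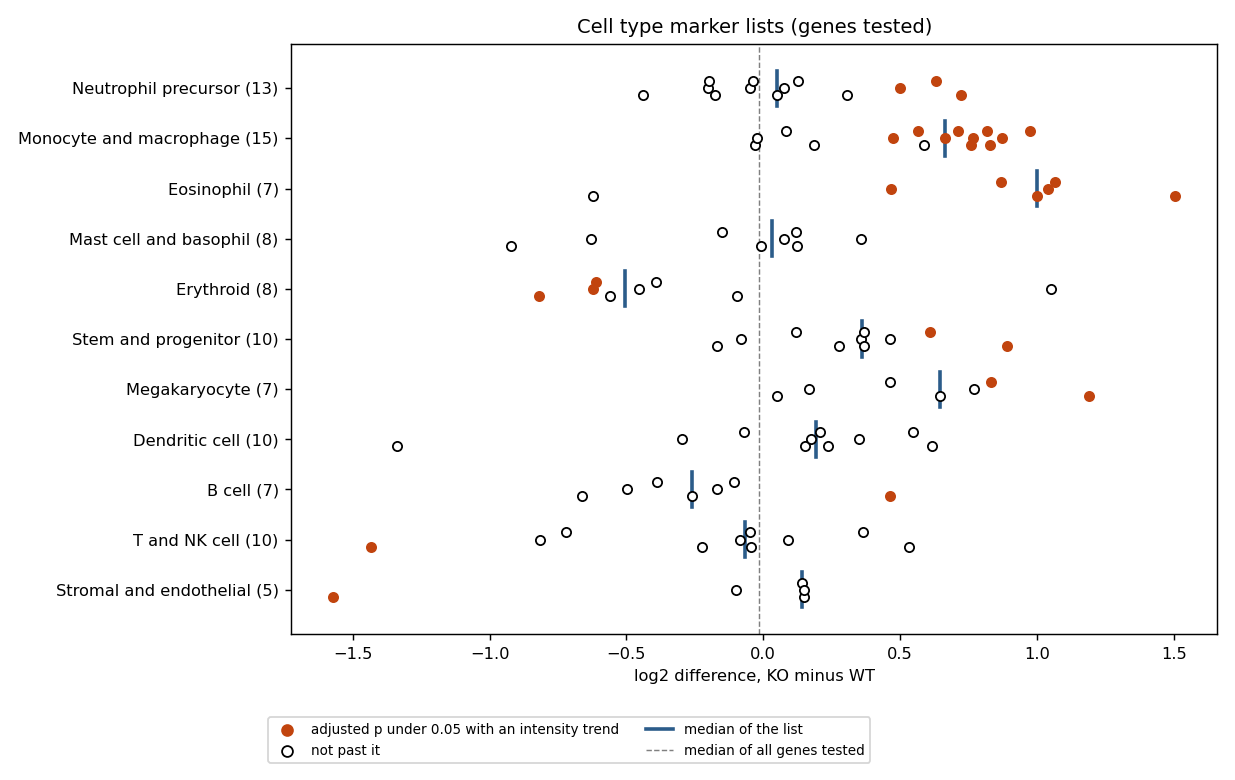
Difference between genotypes (KO minus WT, log2) of cell type markers, each by its brightest probe, with the number of genes tested in parentheses. Filled points passed at an adjusted p under 0.05 with the intensity trend, blue bars are list medians and the dashed line is the median of all genes. Monocyte and eosinophil medians (0.66 and 0.998) lie to the right of it and the erythroid median (-0.51) to the left.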

How the data were processed

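RNA of sorted immature granulocytes was labelled with Cy3 and hybridised to 1-colour arrays, per the labels' protocols. Per the file headers, Agilent Feature Extraction 10.5.1.1 gave each spot a processed intensity, background-subtracted and detrended but not scaled between arrays. Raw spot and background intensities are in the same files. The authors' deposited table holds log2 values, which correlated with the log2 of these intensities (Pearson's r of at least 0.9999 over the probes of each array). How they were centred is not given in the sources used here, and all 4 column medians are 4.68.

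Log2 processed signals had the 75th percentile of each array subtracted, and spots of a probe were averaged. The 25749 of 41174 probes that 2 or more arrays put well above background entered limma 3.58.1 in R 4.3.3 (lmFit, eBayes, Benjamini-Hochberg over all these probes, adjusted p under 0.05), without a block. Genes of lists were named through RefSeq's GRCm38.p6 gene table, whose coordinates were not used, and represented by their brightest probe. Promoters and the miRNA are from RefSeq tables. Named were all receptor probes, the 3 genes of each pathway list with the smallest p, the 2 brightest markers of lists a result turned on, and the 3 genes nearest to Csf3r. Jak2, Stat5a, Stat5b and Spi1 were named beside these, after their values were seen, as partners of the receptors. The markers Ermap, Hba-a1, Bst2, Ltf, Prtn3, Ctsg, Elane and Ms4a3 were likewise named after their values were seen. So were Ccr3, Ear1, Ly6a, Cd79b, Cd3d and Cxcl12. Members and lists were chosen with earlier results of these data known. Alternatives changed the background correction, scaling, starting values, filter, variance prior, probe rule, outlier spots, block and arrays used. Precision is limited by the number of arrays.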

Additional observations from a re-analysis of the deposited data

How the results depend on the processing

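The count of receptor probes past the threshold was 0 and remained 0 under the alternatives other than the intensity trend and normexp without control spots, which each called 1, Csf2rb2 (0.56 and 0.65). Genes of the pathway lists past the threshold numbered 0, but 11 with the trend and 13 with normexp without control spots. Over all probes the count was 0, but 2480 with the trend, 3545 with normexp without control spots, 5 with quantile normalization, 106 with each array's median, 267 on the authors' deposited values and 128 on probes well above background on all arrays. Among the receptor probes and the 3 genes of each pathway list with the smallest p, signs turned only for Flt3 (-0.73 with normexp on all spots, -0.089 with it fitted without control spots), the Il6ra probe A_51_P415855 (-0.10 with normexp on all spots), the Il6ra probe A_51_P415863 (0.028 with quantile normalization, 0.056 with the median, 0.059 on the authors' deposited values), the Csf2rb probe A_52_P492939 and, with normexp on all spots, the pathway genes Spred1 (-0.028) and Ccnd2 (0.026). Normexp on all spots moved the median of all probes to -0.31, against -0.03, and raised the Csf2rb2 (0.99), A_52_P52618 (0.72), Csf2ra (0.71) and Csf3r (0.61) differences, and the cause was not tested. Normexp on all spots and without control spots also turned the medians of the stem and progenitor (-0.59 and -0.05), megakaryocyte (-0.36 and -0.01), dendritic (-0.74 and -0.02), mast cell (-1.01 and -0.13) and stromal (-1.07 and -0.14) lists, and quantile normalization and the array median turned that of the T and NK list (0.0022 and 0.013). Over all lists and alternatives, 65 medians moved by at least the SD between arrays of a genotype and 190 by less. Leaving out 1 array at a time gave 0 calls over all probes, receptor probes and pathway lists each time, and the differences ranged from -0.34 to 0.64 for Flt3, from -0.058 to 0.18 and from -0.18 to 0.13 for the 2 Il6ra probes and from -0.015 to 0.18 for A_52_P492939. They kept their sign in the other 8 receptor probes, with Csf2rb2 from 0.42 (without KO replicate 1) to 0.70 (without KO replicate 2) and Epor from -0.93 to -0.57. List medians that turned in sign without 1 array ranged from -0.26 to 0.62 (dendritic), -0.44 to 0.27 (T and NK), -0.056 to 0.012 (mast cell), -0.077 to 0.096 (neutrophil precursor), -0.043 to 0.22 (stromal), -0.043 to 0.099 (negative regulators) and -0.0071 to 0.042 (Janus kinases), and the megakaryocyte median from 0.16 to 0.94. Receptor probes at an unadjusted p under 0.05 numbered 4, but 0 with normexp on all spots and 5 with normexp without control spots. They numbered 3 with quantile normalization or each array's median, and 2 with no filter or with the replicate block. With the intensity trend Csf3r was under 0.05 besides those 4 (limma unadjusted p = 0.0148). The labels do not say what the replicate numbers share, and same-numbered arrays deviated together little (r = 0.03 across probes). With the replicate number as a block 0 probes were called and Csf2rb2 had an adjusted p of 0.165. A slide or scan block was not run, since there was 1 of each. Dim probes (Epor, Flt3) limit what can be read of their genes.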
